A study of Drosophila melanogaster with 2 samples.

Results

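REPTOR-bound regions whose summits lay more than 100 and at most 1000 bp downstream of a protein-coding transcription start site, on the side of the gene body, are described here. The peaks came from the optimal dm6 list of reproducible peaks. A peak was taken by position alone, from the distance of its summit (the point of highest signal) to the nearest start site, read along the strand of the gene. Summits at divergent promoters were left out, where the outermost starts of 2 genes on opposite strands lay at most 1000 bp apart. These are summits between such starts or within 200 bp of either. The rule took 458 of the 5321 peaks (8.61%), and 1123 peaks at divergent promoters were set aside. The height of a peak played no part in the choice.

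Chromatin immunoprecipitation with sequencing (ChIP-seq) was carried out on whole Drosophila melanogaster embryos 0 to 24 h old, male and female pooled. The embryos came from a transgenic line that stably expressed CG13624, the gene now called REPTOR, with GFP at its C terminus, and the tagged protein was pulled down with an antibody against GFP. There was 1 group, with no other genotype or treatment, in 2 biological replicates that the labels number 1 and 3. Whole embryos mix all tissues and stages of embryonic life, so a peak held by few cells and a weak peak held by many cannot be told apart, and read depth is unknown. The labels do not state which promoter drives the fusion gene, and an experiment listed as a possible control was not analysed here.

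REPTOR belongs to the bZIP family of transcription factors and is controlled by TORC1, the nutrient-sensing growth kinase. In fed cells TORC1 activity keeps REPTOR in the cytoplasm, and when TORC1 activity falls REPTOR enters the nucleus and activates genes of the starvation response. The stretch just inside a gene holds the 5′ untranslated region (UTR), the first splice donor site, and often the first intron, which in Drosophila is a usual place for enhancers.

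The strongest of these regions lay in first introns, at genes that include CG9663, LPCAT, CG31612 and mub, and in a later intron of unk. Their sequences are shown because they are among the strongest. Windows on 1 chromosome arm, windows with a UTR base and some others were not printed, so stronger peaks are missing from this set. Each is the summit with 50 bp on either side, on dm6, printed 5′ to 3′ on the strand of the gene from the RefSeq Release 6 genome. Capitals mark a match to a searched motif on either strand. In the CG9663 window this is the FOXO motif, with letters GTAAACA.
CG9663 (chr2L:3302106-3302206, minus strand): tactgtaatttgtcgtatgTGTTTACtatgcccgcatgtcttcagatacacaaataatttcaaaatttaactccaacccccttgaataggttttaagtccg
LPCAT (chrX:9579250-9579350, minus strand): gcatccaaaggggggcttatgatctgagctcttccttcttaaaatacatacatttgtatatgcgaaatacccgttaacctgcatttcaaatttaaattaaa
CG31612 (chr2L:21794924-21795024, minus strand): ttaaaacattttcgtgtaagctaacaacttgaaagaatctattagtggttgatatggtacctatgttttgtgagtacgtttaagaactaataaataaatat
unk (chr3R:23156844-23156944, minus strand): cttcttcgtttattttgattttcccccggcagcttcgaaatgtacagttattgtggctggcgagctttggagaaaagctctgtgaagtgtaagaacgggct
mub (chr3L:21880429-21880529, plus strand): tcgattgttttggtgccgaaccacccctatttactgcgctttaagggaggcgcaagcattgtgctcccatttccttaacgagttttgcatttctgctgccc

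The windows printed for LPCAT, CG31612, unk and mub held no match to any of the 20 motifs searched. A further set shows examples of motifs discussed below, each from a strong peak among the windows that could be printed. Capitals mark DRE (TATCGATA) and Pho (GCCATNTT) at Stt3A. At CG43693 they mark CTCF (AGNTGGCGC), C/EBP (TTGCNNAA), a CACGTG E-box and, last, the letters TATAAA of a TATA box. At eIF3h they mark the CA repeat (CACACACA), read on the other strand, and at aru C/EBP. At Eip63F-1 they mark a TATA box and a CATATG E-box. At InR they mark the motif of GAGA factor, which is GAGAGAG on the other strand. Neighbouring or overlapping matches merge into 1 run of capitals.
Stt3A (chrX:21053273-21053373, minus strand): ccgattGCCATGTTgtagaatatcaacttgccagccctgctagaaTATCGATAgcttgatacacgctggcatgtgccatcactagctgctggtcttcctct
CG43693 (chr3L:11048034-11048134, minus strand): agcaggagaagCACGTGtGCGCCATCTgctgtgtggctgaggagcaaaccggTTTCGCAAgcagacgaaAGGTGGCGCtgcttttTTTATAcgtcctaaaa
eIF3h (chr2L:5052460-5052560, minus strand): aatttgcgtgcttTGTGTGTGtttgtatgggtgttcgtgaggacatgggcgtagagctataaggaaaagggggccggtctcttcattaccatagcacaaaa
aru (chr2L:867447-867547, minus strand): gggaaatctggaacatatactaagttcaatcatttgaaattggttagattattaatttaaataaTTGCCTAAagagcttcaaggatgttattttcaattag
Eip63F-1 (chr3L:3928617-3928717, minus strand): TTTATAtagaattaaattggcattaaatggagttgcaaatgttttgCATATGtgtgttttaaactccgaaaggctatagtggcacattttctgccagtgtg
InR (chr3R:21618568-21618668, minus strand): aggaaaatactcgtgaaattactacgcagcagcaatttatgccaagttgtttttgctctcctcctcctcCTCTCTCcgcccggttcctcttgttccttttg

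The stretch more than 100 and up to 1000 bp downstream of start sites held fewer summits than the same stretch upstream. Positions upstream of an inner start can also lie inside a gene. Downstream there were 458 summits in 13.3 Mb of such positions, a density of 34.5 per Mb. Upstream there were 1040 summits in 9.38 Mb, a density of 111 per Mb, which is 3.21 times as dense. Positions were counted by the same rule as summits. Each went to its nearest start site, and those between divergent starts or within 200 bp of either were left out of both figures. This takes out the whole stretch between such genes but keeps their downstream positions past 200 bp. The upstream and downstream figures therefore do not cover the same genes. The rule fixes the distances, so these values describe where the peaks lay and were not tested.

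Within the window the density fell steeply and then stayed level. In the first 100 bp downstream, which the rule leaves out, there were 368 summits (263 per Mb). In the next 100 bp there were 93 (70.1 per Mb) and in the 100 bp after it 63 (38.01 per Mb). From there to 1000 bp each bin of 100 bp held from 37 to 54 summits, the last one 38 (28.8 per Mb). Positions up to 200 bp downstream of the outermost starts of divergent genes were left out, and those past 200 bp kept. The bin just past 200 bp thus covers more genes, with 1657562 positions against 1326975 in the bin before it. The median distance was 476.5 bp. At the lower edge, the peaks just inside were at Mer (102 bp, signal 270) and drn (103 bp, 183), and the peaks just outside were at Srpk79D (100 bp, 102) and ZnT41F (100 bp, 80.0). At the upper edge, Hmu (999 bp, 110) and CG9747 (998 bp, 102) were just inside, and ckn (1004 bp, 109) and Cyt-c-p (1006 bp, 166) just outside.

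**Figure D1:**
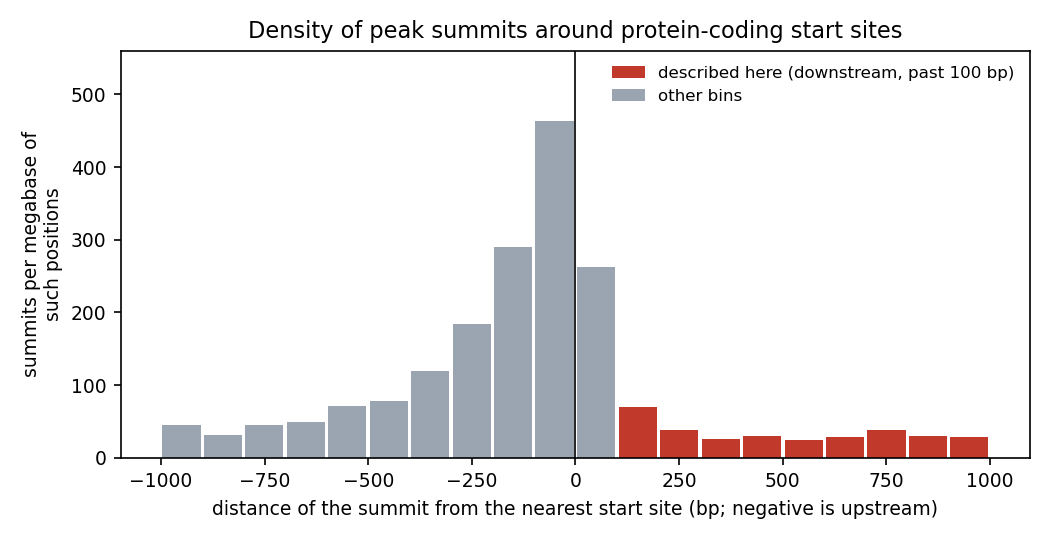
Number of peak summits per megabase of positions at the same distance, in bins of 100 bp from the nearest protein-coding start site, with negative distances upstream and red bins for the 458 downstream peaks. The density was 263 per Mb in the first 100 bp downstream, 70.1 per Mb in the next bin and 28.8 per Mb in the last.

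The summits were rare in coding sequence. Introns held 292 of the 458 (63.8%, 95% interval 59.2 to 68.2), though they made up 31.4% of the positions in the window. A further 143 (31.2%, 27.0 to 35.7) lay in 5′ UTRs, which made up 14.3% of positions. Coding sequence held 15 (3.28%, 1.84 to 5.34) against 47.8% of positions, a share 0.0686 times that of the positions. The remaining 8 were in non-coding exons (4), between genes (3) and in a 3′ UTR (1). Intervals here are exact Clopper-Pearson intervals. They reflect counting error alone and treat each peak as independent.

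The share of summits in 5′ UTRs fell and that in introns rose with distance, as did the shares of positions. Coding sequence stayed low throughout. Up to 250 bp, 72.1% of 129 summits were in 5′ UTRs and 22.5% in introns, beside 38.1% and 20.4% of positions. From there to 500 bp, 64.7% of 116 summits were in introns and 28.4% in 5′ UTRs, beside 29.0% and 17.0% of positions. Past 500 bp, 88.3% of 213 summits (83.2 to 92.3) were in introns and 7.98% in 5′ UTRs, beside 36.1% and 5.58% of positions. Coding sequence held 4.65%, 6.03% and 0.939% of summits in these bins, beside 40.7%, 50.7% and 48.3% of positions. Per megabase, introns held 70.0 summits and 5′ UTRs 75.3, against 2.37 in coding sequence. Over the same bins of distance, introns held 65.8, 64.5 and 73.2 per Mb and 5′ UTRs 113, 48.7 and 42.8. The 15 in coding sequence had a median signal of 97.3, and their genes included AGO2, which encodes the Argonaute of RNA interference, Got2, a mitochondrial aminotransferase, and Tim17b1, a subunit of a mitochondrial protein import channel. These 3 names were picked after their values were seen.

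**Figure D2:**
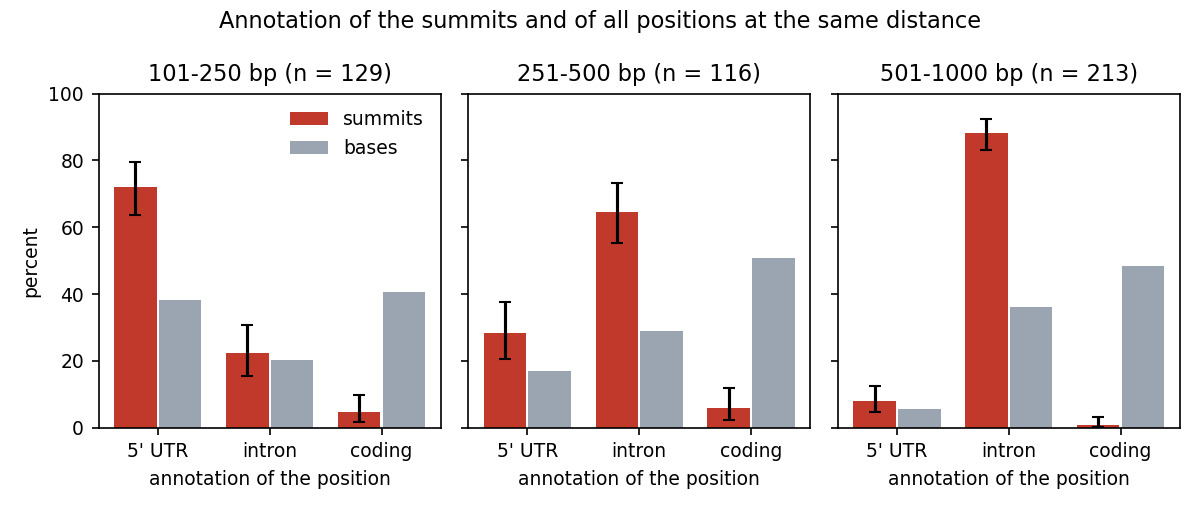
Share of summits (red, with 95% Clopper-Pearson intervals) and of all positions at the same distance (grey) in 5′ UTRs, introns and coding sequence, in percent, for 3 ranges of distance. Coding sequence held at most 6.03% of summits in any range, while it made up at least 40.7% of positions.

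Relative to the transcript that starts at the nearest start site, most summits were in the first intron. There were 283 of these (61.8% of all 458), some of which are 5′ UTR in another transcript and were counted above as such, with 131 in the first exon, 39 beyond the first intron and 5 past the end of that transcript. The first introns that held a summit were long, with a median of 1750 bp (quartiles 812 and 3707 bp). Over the 12655 start sites outside divergent promoters whose transcript has an intron, the median first intron was 277 bp (66 and 1744 bp). A long intron offers more positions in the window, so part of this difference is given by the rule. The summits lay a median of 304 bp past the splice donor, and 15 of the 283 were within 50 bp of it.

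Many of the genes have several start sites, and the downstream peaks were not all at the outermost one. The nearest start was the gene's outermost for 261 peaks (57.0%), and 304 peaks were at genes with more than 1 start. Another start of the same gene lay within 1000 bp further downstream of 60 summits (13.1%). The start of a non-coding RNA lay within 100 bp of 5 summits. A separate peak sat on the same start site for 64 (14.0%).

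The downstream peaks were of middling height. Height is given as the signal of the authors' peak caller in the optimal list, a value set by the reads behind each list. The median was 118 (quartiles 92.7 and 162, range 78.0 to 1291), 0.950 times the median of 125 over all 5321 peaks. Peaks more than 100 and up to 1000 bp upstream had a median of 140, those within 100 bp of a start 117, and intronic peaks 1 to 5 kb from a start 121. Of the downstream peaks, 96 (21.0%, 17.3 to 24.98) were among the 1330 strongest peaks of the list, which are 24.995% of it, against 34.6% of the upstream peaks (31.7 to 37.6) and 17.5% of those at the start (15.1 to 19.95). In the lists called on each replicate alone, the median signal was 64.7 for the downstream peaks and 65.9 for all peaks in replicate 1. In replicate 3 these medians were 67.3 and 67.1. The differences between classes were not tested, since 2 replicates of 1 group allow no test across samples and the peaks of a replicate share a library.

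Median height varied with place inside the gene, with wide overlap. Summits up to 250 bp had a median signal of 103 (quartiles 88.5 and 147). From there to 500 bp it was 124 (95.5 and 160), and past 500 bp 121 (95.5 and 188). Intronic summits had a median of 125 (95.6 and 177) and 5′ UTR summits 108 (89.7 and 149). Most summits up to 250 bp were in 5′ UTRs, so these comparisons are not separate, and neither was tested. The 5′ UTR summits were also relatively lower in replicate 1, where their median log2 ratio to replicate 3 was -0.16 after the ratio over all peaks was set to 0. In introns it was 0.01.

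The strongest downstream peak was in the first intron of CG9663, 974 bp from the start, with a pooled signal of 1291. Its signal was 629 in replicate 1 and 662 in replicate 3, where it ranked 16 and 14 among 30000 calls. The next was at Adf1, which encodes a Myb-family transcription factor, 791 bp from the start (pooled 1152, replicates 486 and 674). At LPCAT, a lysophosphatidylcholine acyltransferase gene, the pooled signal was 631 at 687 bp, with 288 and 340 in the replicates. CG31612 had 533 at 473 bp (270 and 269). CG9663 and Adf1 stood well above the others, and both replicates placed these 4 peaks within their first 133 calls.

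The rest of the 25 strongest were at genes of varied kinds. The gene wde, which encodes a partner of the histone methyltransferase Eggless, had 512 at 552 bp (249 in replicate 1 and 261 in replicate 3). Fem-1, of a family of ubiquitin ligase substrate receptors, had 461 at 704 bp (237 and 226). The RNA-binding protein gene mub had 445 at 902 bp (203 and 248). Fer2LCH, which encodes the ferritin light chain, had 443 at only 153 bp, in its first intron (180 and 265). Marf, the mitofusin gene, had 380 at 554 bp (189 and 197), and hts, the adducin gene, 371 at 825 bp (188 and 184). Their replicate signals stood in much the same order as the pooled ones, and of all 25 the widest gap between replicates was at Fer2LCH, where the log2 ratio of replicate 1 to 3 was -0.52.

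Most of these strong peaks were intronic and far from the start. Of the 25, only CG18622 (478 at 173 bp), CG14434 (369 at 111 bp), Raf (364 at 810 bp), egh (360 at 343 bp), Fbl6 (359 at 533 bp) and EDTP (359 at 247 bp) had their summit in a 5′ UTR, and none was in coding sequence. Raf encodes the kinase that acts above MEK, egh a glycosyltransferase of glycolipid synthesis and EDTP a phosphoinositide phosphatase. The other named peaks of this group were CG9135 (442), CG9921 (426), CG42327 (393) and Eip63F-1 (369), a calcium-binding protein gene induced by ecdysone. The last was elav, the neuronal RNA-binding protein gene (338 at 602 bp, with 152 and 192 in the replicates).

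The downstream peaks often had company. Another optimal summit lay within 1000 bp of 181 (39.5%, 35.0 to 44.2), against 22.8% of all 5321 peaks, and the median distance to the nearest other summit was 1409 bp against 3314 bp. Neither value is given here for the upstream or start-site peaks, which also lie near starts. Within 250 bp there was another summit for 78 (17.0%, 13.7 to 20.8), beside 17.7% of the upstream peaks, 9.33% at the start and 12.1% of all. The smallest gap between such summits was 199 bp, and the median gap 203 bp. Of the 78, the neighbour was the stronger peak for 49. Among the 25 strongest downstream peaks, 9 had such a neighbour, and all 9 were stronger than it. The 25 were taken for their height, so this order is largely given by the choice. Close summits can overlap the same call in a replicate, which was so for 83 of the 458 (18.1%), and their replicate values are then not separate measurements.

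Most genes had a single downstream peak. There were 420 genes with at least 1, which is 3.01% of the 13945 protein-coding genes, and 386 of them had 1, 30 had 2 and 4 had 3. For 6 peaks the nearest start was shared between genes. Those with 3 include Lk6, Fem-1 and Tlk. At Lk6, the kinase gene described further below, the pooled signals were 344 at 981 bp, 213 at 412 bp and 88.98 at 782 bp. At Fem-1 they were 461, 104 and 83.3, and at Tlk, which encodes a chromatin-associated kinase, 117, 110 and 79.3. At Lk6 the weakest peak lay 199 bp from the strongest, and at Fem-1 the middle peak 206 bp from it, and each shared the replicate calls of the strongest.

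Genes of TORC1 and insulin signalling, the pathway that controls REPTOR, carried downstream peaks most often among the 18 gene lists. Of the 43 genes, 11 had one (25.6%, 13.5 to 41.2), against 3.01% of all protein-coding genes. These genes have more peaks of any kind: 67.4% were the nearest gene of some optimal peak, against 25.8% of all genes. They also have more room, with a median of 690 intronic and 5′ UTR positions per gene in the window against 185. Per megabase of such positions there were 306 downstream peaks in the list and 71.7 over all genes. The list, like the others, was put together with earlier results of these data known, and its share was not tested.

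The receptors and kinases at the top of the pathway had peaks of all heights. InR, the insulin receptor gene, had a signal of 324 at 418 bp in its first intron (154 in replicate 1 and 170 in replicate 3). Pi3K92E, which encodes the catalytic subunit of PI3-kinase, had 191 at 536 bp (94.9 and 95.6). Pdk1, the kinase gene between PI3-kinase and Akt, had 90.5 at 116 bp (47.8 and 42.7). Akt was near the bottom with 79.1 at 641 bp, and its replicates stood far apart at 17.7 and 55.5, ranks 15528 and 3474. InR thus ranked in the first 500 calls of both replicates, and Akt fell outside the first 5321 of replicate 1.

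The genes that act on or below TORC1 included the strongest. unk, which encodes a zinc finger protein that acts with TORC1 in the timing of neuronal differentiation, had 503 at 968 bp (250 and 258, ranks 140 and 143). Its other peak, 200 bp away at 768 bp, had a pooled signal of 125 and shared both replicate calls. Lk6, which encodes the kinase that phosphorylates the cap-binding factor eIF4E, had 344 (157 and 206). PRAS40, an inhibitory partner of TORC1, had 300 at 854 bp (141 and 168), also with a neighbour 202 bp away. S6k, the gene of the ribosomal protein S6 kinase and a direct target of TORC1, had 137 at 842 bp, with 42.8 and 87.8 in the replicates. The AMPK subunit gene alc had 120 (71.3 and 63.2), the kinase gene sgg 114.7 (66.4 and 45.7) and chrb, which encodes a TORC1 inhibitor induced by stress, 92.1 (92.9 and 64.1), from calls shared with a stronger neighbour. The 3 genes unk, Lk6 and InR were above 300 in pooled signal, and PRAS40 just under it.

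**Figure D3:**
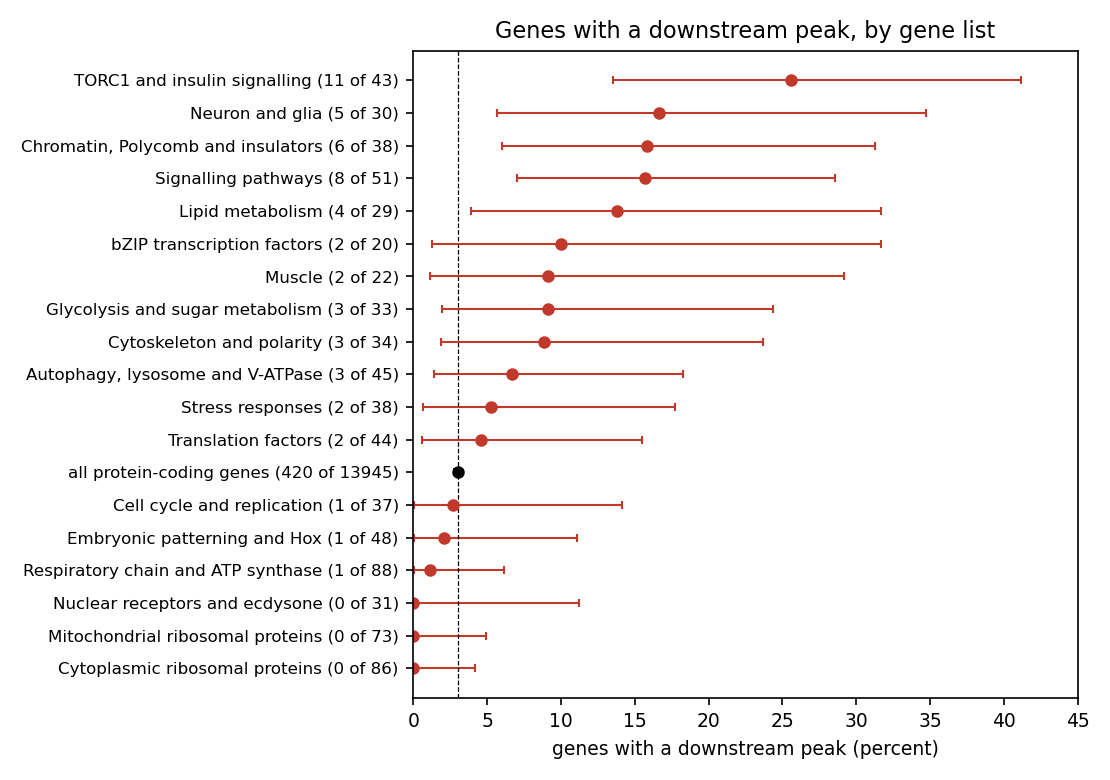
Percent of the genes in each list that had a downstream peak, with 95% Clopper-Pearson intervals, and in black the 13945 protein-coding genes with the dashed line at their 3.01%. TORC1 and insulin signalling stood highest at 25.6%, and 3 lists stood at 0.

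Genes for regulators and signalling proteins also had downstream peaks. These lists, too, have more room in the window than the 185 positions of the median gene, with medians of 1345.5 intronic and 5′ UTR positions for neuronal and glial genes, 537.5 for chromatin genes and 900 for the signalling list. At the density over all genes they would hold 3.11, 1.94 and 4.10 such peaks, and they held 6, 7 and 10. Peaks of any kind were also more common there. Of their genes 36.7%, 71.1% and 60.8% were the nearest gene of some optimal peak, against 25.8% of all genes. These counts were not tested. In the list of neuronal and glial genes 5 of 30 had one (16.7%, against 3.01% of all genes), with elav (338), Gs2, a glutamine synthetase gene (335 at 511 bp, with 163 and 172), and dlg1, the gene of a scaffold at cell junctions (242 at 442 bp), above the others. Of the 38 chromatin genes 6 had one, led by Trl, which encodes GAGA factor, with 338 at 126 bp (167 and 172) and ph-p, a Polycomb group gene, with 162 at 363 bp. CTCF, the insulator protein gene, had 116 and Utx, a histone demethylase gene, 103. In the signalling list 8 of 51 had one, among them Raf (364), Mer, the Hippo pathway gene at the lower edge of the window (270), spi, an EGFR ligand gene (186 at 319 bp), and Stat92E, the transcription factor gene of JAK-STAT signalling (185 at 318 bp). The gene sgg is also in this list.

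Metabolic and other lists had a few each. Of the lipid genes 4 of 29 had one, of which SREBP, the transcription factor gene of fatty acid synthesis, had 242 at 489 bp (115 and 128) and Agpat2, an acyltransferase gene, 218. Of the sugar metabolism genes 3 of 33 had one, led by Pgd (145), whose enzyme acts in the pentose phosphate pathway. Of 20 bZIP genes there were 2, CrebB (159 at 784 bp, with 64.0 and 91.8) and cnc (144 at 295 bp, with 71.6 and 74.8), and cnc was also 1 of the 2 among 38 stress genes, with DnaJ-1. Muscle genes had 2 of 22, with the talin gene rhea at 197, and cytoskeletal genes 3 of 34, with the dynein heavy chain gene Dhc64C at 325 (169 and 161). Autophagy and lysosome genes had 3 of 45, with Lamp1 and ref(2)P, the p62 gene, both at 152, and translation factor genes 2 of 44. At the density over all genes, the positions of these lists would hold 2.13 peaks for lipid metabolism, where 5 were found, 3.59 for the cytoskeleton (3 found), 2.44 for muscle (2), 1.84 for bZIP genes (2) and 1.96 for stress responses (2). Of the lipid genes 62.1% were the nearest gene of some optimal peak of any kind, against 25.8% of all genes. The translation factor gene eIF3h, with 266 at 270 bp, was the single downstream peak without an overlapping call in replicate 3.

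Several lists had few downstream peaks or none. No cytoplasmic ribosomal protein gene of 86 had a downstream peak (interval up to 4.20%), although 71 of the 86 were the nearest gene of some optimal peak. No mitochondrial ribosomal protein gene of 73 had one, nor any of the 31 nuclear receptor and ecdysone genes. The respiratory chain had 1 of 88, ATPsynC (89.7), the cell cycle list 1 of 37, Dp (176), and embryonic patterning 1 of 48, dl (114). These last 3 shares of 1.14%, 2.70% and 2.08% stood under the 3.01% of all genes, but counts of 1 carry no result about the lists. The 86 ribosomal protein genes together hold 22.8 kb of intronic and 5′ UTR positions in the window. At the density over all genes that would hold 1.63 peaks, so the 0 is within reach of counting error. For the nuclear receptor list the same figure was 2.79, for the mitochondrial ribosomal proteins 0.496, and for TORC1 and insulin signalling 3.28 against 14 found.

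The downstream peaks, like the other classes away from the start, seldom held the core promoter motifs that marked the peaks at start sites. DRE, the site bound by DREF at housekeeping promoters, was within 50 bp of 2 of the 458 summits (0.437%, 0.0529 to 1.57), and of 7.32% of the 997 summits within 100 bp of a start (5.78 to 9.12). Motif 1 (GGTCACACT), another core promoter element, was at 0 of the 458, which allows up to 0.802%, and at 4.41% of those at the start (3.22 to 5.88). DRE was at 1.15% of upstream summits (0.598 to 2.01) and at 0.140% of intronic ones 1 to 5 kb from a start. Motif 1 was at 0.577% and 0% of these. Among 129420 peak-free windows of the same length, laid in steps of 100 bp over 150 to 950 bp downstream of start sites, 0.128% held DRE and 0.0340% Motif 1. Over all 5321 peaks, which include the downstream ones, the shares were 3.55% and 1.64%. A motif match is a run of letters in the genome on either strand, and it does not show that a factor is bound.

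In the GATA and FOXO motifs the downstream peaks resembled those further from the start. The motif of GATA factors, with letters AGATAA, was at 7.64% of downstream summits (5.38 to 10.5), at 7.60% of upstream ones, at 7.85% of intronic ones 1 to 5 kb away, and at 3.01% at the start. Within the window it was at 2.33% of summits up to 250 bp and at 9.73% of those beyond. Over all peak-free windows the GATA share was 4.92%. In introns GATA was at 9.25% of summits (6.18 to 13.2) and 7.55% of peak-free windows, and in 5′ UTRs at 4.20% and 4.71%. Most summits up to 250 bp were in 5′ UTRs and most beyond in introns, so the contrasts by distance and by annotation are not separate. TATA was at 12.01% of downstream summits (9.18 to 15.3), against 16.9% upstream, 17.5% in distant introns and 7.62% at the start. In introns TATA was at 14.0% of summits (10.3 to 18.6) and 15.1% of peak-free windows, and in 5′ UTRs at 9.79% and 9.01%. The FOXO motif was at 3.49% (2.01 to 5.61) against 1.74% of the peak-free windows and 3.76% of all peaks. Within introns it was at 3.77% of summits (1.90 to 6.64) and 2.86% of peak-free windows, and within 5′ UTRs at 3.50% and 2.43%. The intervals of the downstream share and the shares in upstream and distant intronic peaks overlapped for GATA and FOXO. For TATA the downstream share was lower than both, and its interval reached neither share. The intervals of those shares (14.7 to 19.3 upstream and 14.8 to 20.5 in distant introns) still overlapped it.

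C/EBP and the CA repeat differed from the upstream peaks by more than their intervals. C/EBP was at 24 downstream summits (5.24%, 3.39 to 7.70), against 9.90% upstream (8.16 to 11.9), 9.54% in distant introns (7.48 to 11.9), 7.62% at the start (6.05 to 9.45) and 7.26% of peak-free windows. The CA repeat was also at 24 downstream summits (5.24%, 3.39 to 7.70), against 1.44% upstream (0.809 to 2.37), 2.31% at the start, 2.38% in distant introns (1.39 to 3.79) and 2.07% of peak-free windows. Against peak-free windows of the same annotation the contrast for the CA repeat was smaller: in 5′ UTRs 6.29% of summits and 5.85% of peak-free windows held the repeat, and in introns 5.14% (2.90 to 8.33) and 3.39%. For C/EBP the intronic summits had 4.79% (2.65 to 7.91) against 9.37% of peak-free intronic windows. With 20 motifs and several classes looked at and no test, such gaps are descriptions of this list. CTCF was at 3 downstream summits (0.655%) and 2.40% upstream, GAGA at 2.40% and 2.88%, and the CACGTG E-box at 1.09% and 1.54%. The CATATG E-box was at 5.24% downstream, 4.52% upstream and 2.01% at the start.

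**Figure D4:**
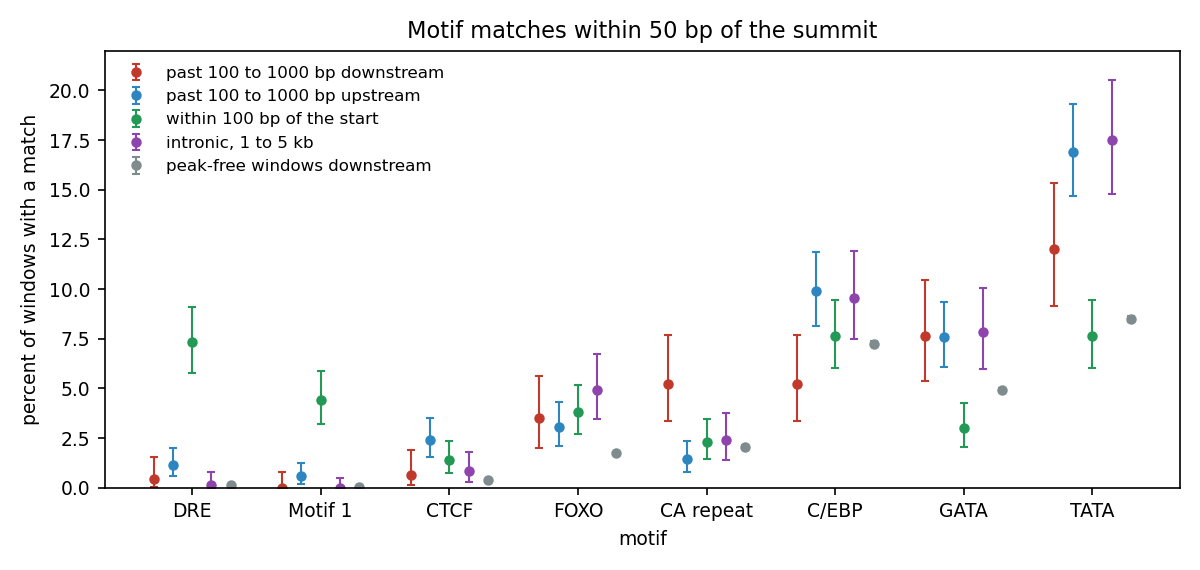
Percent of windows of 50 bp either side of the summit with a match to each of 8 motifs, with 95% Clopper-Pearson intervals, at the downstream summits (red), 3 other classes of summits and peak-free windows at the same distances from start sites (grey). DRE and Motif 1 were at 7.32% and 4.41% of summits within 100 bp of a start and at 0.437% and 0 of the downstream ones.

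Base composition followed the annotation. The windows at downstream summits were 40.3% G and C on average, between 36.6% upstream and 44.9% at the start, and the peak-free windows were 46.0%. In introns the summits had 38.3% and the peak-free windows 38.6%, and in 5′ UTRs 43.4% and 43.9%. Of the 761 six-letter words found in at least 20 downstream windows, with both strands joined, TACGCA had the highest ratio to the peak-free windows, at 34 summits (7.42% against 2.79%). It was at 4.90% of upstream summits, 4.01% of those at the start and 4.07% in distant introns. ATTGCG was at 10.3% against 4.29% and CATACA at 11.1% against 4.58%. ATTGCG was at 4.42% of upstream summits, 6.12% of those at the start and 5.89% in distant introns. For CATACA these shares were 7.31%, 4.01% and 8.84%. In introns alone TACGCA was at 6.85% of summits and 3.35% of peak-free windows, ATTGCG at 8.90% and 4.15%, and CATACA at 14.0% and 7.07%. These words were picked for their ratios and carry no test.

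The replicates ranked the downstream peaks about as alike as the rest of the list. All but 1 of the 458 overlapped a call in both replicates, and 360 (78.6%) were within the first 5321 calls of each, the same share as the 78.6% over all peaks. The whole list was kept for how alike these replicates rank a call, so such likeness is partly set by that choice. Signals of separate lists are on their own scales, so the log2 ratio of replicate 1 to replicate 3 was set to 0 at its median over all peaks. Its SD was 0.52 over the downstream peaks and 0.48 over all. It passed 2-fold either way at 22 (4.81%, 3.04 to 7.20), 8 higher in replicate 1 and 14 in replicate 3, where 4.36% of all peaks passed. The 2-fold share was sensitive to how a replicate call was matched. With the call whose summit lay nearest, within 100 bp, it was 8.29% of the 410 peaks that had such calls, beside 6.24% of all peaks, a choice made after the data were seen.

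The summits of the replicate calls lay slightly further apart than over all peaks, a difference that was not tested. They lay a median of 34 bp apart, against 29 bp over all peaks, and 64.3% were within 50 bp against 70.3%. When the distance rule was applied to the summit of the replicate's own call, 393 of the 458 (85.8%) were still in the window in replicate 1 and 423 of 457 (92.6%) in replicate 3.

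A few peaks were far apart in the replicates. The peak at ph-p had 151 in replicate 1 and 24.3 in replicate 3, ranks 484 and 11878, for a centred log2 ratio of 2.67. It was followed by atos (68.7 and 26.4) and CG31909 (54.8 and 22.04). In the other direction Mnn1, the menin gene, had 79.1 and 304, dop, a kinase gene, 24.1 and 87.4, and Akt 17.7 and 55.5. At Mnn1 the replicate 3 call was shared with a neighbouring peak 213 bp away. With the nearest call in its place the values were 79.1 and 129, for a log2 ratio of -0.67, while those at ph-p, dop and Akt stayed as they were.

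**Figure D5:**
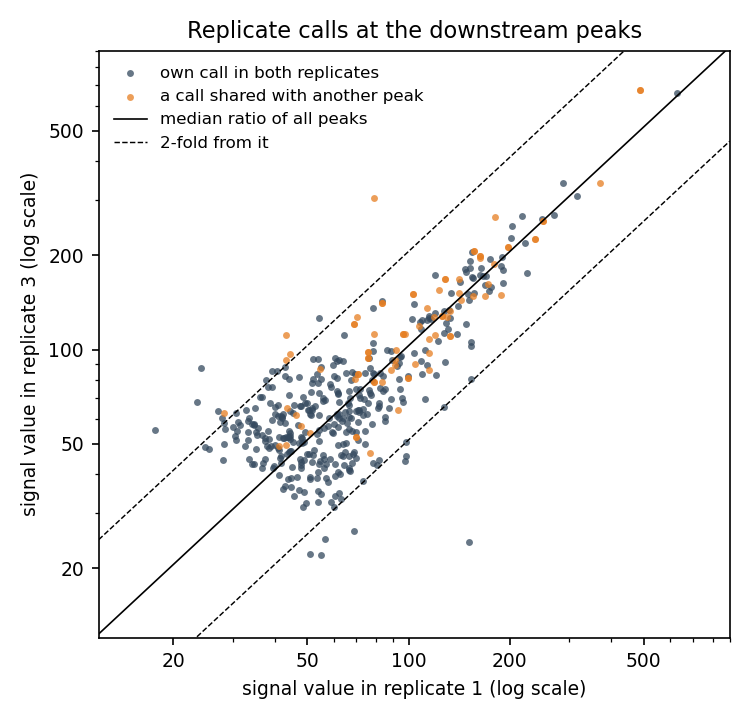
Signal of the downstream peaks in replicate 1 (horizontal) and replicate 3 (vertical), both on log scales, for the 457 with a call in both, with the median ratio of all peaks as a solid line and 2-fold from it as dashed lines. The 22 peaks outside the dashed lines include ph-p at 151 and 24.3, and orange points are peaks that share a call with another peak.

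The peaks were spread over the chromosome arms much like the rest of the list. Arm 3R had 113, X 92, 3L 90, 2R 82 and 2L 78, and chromosome 4 had 3. The X share was 20.1% against 18.2% of all peaks. The modal width of 436 bp, which the caller gave to most peaks, was that of 352 downstream peaks (76.9%) and 74.0% of all, and the widths ran from 110 to 783 bp.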

How the data were processed

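Peak lists on dm6 were used as deposited. Per the notes deposited with the files, the authors called each replicate against a control and kept the optimal list by a threshold on the irreproducible discovery rate, which scores how alike the replicates rank a call. Neither aligner nor caller is given in the sources used here. Signal values are the authors' caller's own, on a scale that differs between lists, and the other deposited column used was the summit offset. Replicate lists held 30000 calls each.

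Start sites came from Ensembl release 115 (BDGP6), any transcript of 13945 protein-coding genes on the main arms. A replicate's value was that of its strongest call overlapping a peak by at least 1 bp. Sequences came from the Release 6 genome of RefSeq, whose arms contain every peak. Analyses used Python 3.11.15, NumPy 2.4.6 and SciPy 1.17.1. Placement was tested on simulated positions.

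The downstream rule, gene lists (18, from 772 gene entries, with 5 symbols unmatched) and motifs were chosen with earlier results of these data known. Named genes are the 25 strongest peaks, up to 4 per list, the 3 widest replicate gaps each way, the genes with most peaks and the peaks at the edges of the window. For TORC1 and insulin signalling every gene with a peak was named. Genes tied at 3 peaks were named together. Some items that the rule selects are not reported here. Replicate numbers 1 and 3 belong to 1 group and pair nothing. Depth is unknown, and no p-value was computed.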

Additional observations from a re-analysis of the deposited data

How the results depend on the processing

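Other start sites, other handling of divergent promoters, the midpoint in place of the summit and a window from past 200 bp were tried. Downstream peaks then numbered from 365 (past 200 bp) to 546 (outermost start), against 458. Their genes numbered from 338 to 510, against 420. There were 530 peaks without replicate 1 and 440 without replicate 3. Keeping only the 2660 strongest peaks of the list left 2.0e+02 downstream peaks (2 digits) at 189 genes. The share with DRE, which rests on 2 peaks, ran from 0.218% with matches within 25 bp and 0.227% without replicate 3 to 0.733% with the outermost start and 0.995% in the 2660 strongest, all inside its interval. The ratio of the median signal to that of all peaks was 0.973 with the outermost start of each gene, 0.964 with genes of every kind, 0.970 past 200 bp and 0.970 in the 2660 strongest, and 0.935 to 0.952 with a replicate left out. The intronic share was 54.2%, 57.3%, 76.2% and 72.6% under the same 4 settings. Past 200 bp the first 100 bp of the window, rich in 5′ UTRs, are gone by construction, and for the others the cause was not tested. The share past 2-fold rose to 8.74% when the replicate call had to cover 50% of the peak (446 of 458 had such calls). It rose to 8.29% with the nearest summit, a choice added after the data were seen. Over all peaks the share also rose with the nearest summit, from 4.36% to 6.24%. For the 50% rule it was not worked out over all peaks, so the 8.74% has no background beside it. No paired analysis was possible because there is only 1 group.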
